A study of Mus musculus with 4 samples.

Results

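Cd163l1 and 5830411N06Rik are neighbouring mouse genes of the scavenger receptor cysteine-rich (SRCR) family, and they are the 2 genes described here of 17097 genes that could be named on the arrays. RefSeq also lists them as Scart1 and Scart2. They were chosen by their log2 signals in this series: as neighbouring genes they were raised most on the arrays labelled hCD2-iCre x Gfi1fl/fl. The difference between the labels is therefore described below without a test. Every probe set named for one of these genes alone was taken, which gave 3 of 28898 such probe sets, 2 for Cd163l1 and 1 for 5830411N06Rik. No filter on low signals was applied.

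The series profiled CD4+CD8+ double-positive cells sorted from the thymus of C57BL/6 mice, a stage at which developing T cells display both coreceptors. It has 4 arrays, of which 2 were labelled WT and 2 hCD2-iCre x Gfi1fl/fl, a cross in which regulatory sequence of human CD2 drives a Cre recombinase in lymphoid cells and the Gfi1 alleles are flanked by loxP sites. The WT mice are not described as carrying the recombinase, ages are not given, and the labels do not say that each replicate was its own animal. The p-values below therefore reflect the spread of these samples alone, which may be technical. The series design asks how the transcription profile of these cells differs between the genotypes.

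SRCR proteins carry 1 or more copies of a small, disulphide-bonded extracellular domain, and the family includes the macrophage haemoglobin receptor CD163 and the T cell surface proteins CD5 and CD6. The products of Cd163l1 and 5830411N06Rik are transmembrane members related to the WC1 receptors of ruminant gamma-delta T cells. In the mouse both are known as surface markers of gamma-delta T cells, in particular those that make interleukin-17. Gfi1 is a zinc-finger repressor of transcription in blood and lymphoid cells.

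The arrays had closely matched distributions, with medians of 3.53 to 3.55 and lower quartiles of 2.97 to 3.02 on the log2 scale of RMA signal. The 1 named probe set of Gfi1 gave 10.17 and 10.08 on the WT arrays and 11.47 and 11.32 on those labelled hCD2-iCre x Gfi1fl/fl. It was therefore higher where the gene was to be deleted, by 1.27 ± 0.14 (SE, limma adjusted p = 0.00781). The limma adjusted p was 0.00440 to 0.0378 over the fits with all 4 arrays. The call was lost without WT replicate 2, where the difference was 1.22 and the spread of WT is not measured. Where this probe set lies relative to the floxed part is not given in the sources used here, and a probe set outside that part checks nothing about the labels. Directions below are between arrays as labelled. The sorted population carried the defining double-positive transcripts under both labels, with Cd8a between 12.48 and 12.78 and Rag1 between 12.54 and 12.66 on the 4 arrays.

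The sequence before each gene's first listed start is shown because the members were high on the same arrays and the labels concern a DNA-binding repressor. Each is the 250 bases before the start on the forward strand of mouse GRCm38.p6, from RefSeq. For Cd163l1 it is chr7:140218017-140218266, the only start in the table, although the RefSeq gene model begins further upstream. For 5830411N06Rik it is chr7:140247051-140247300, before the first of 3 listed starts. The listed starts lie 29034 bases apart on the same strand. Capitals mark matches to the E-box CANNTG, which E proteins bind, and to AATC, the core of the GFI1 motif.
Cd163l1: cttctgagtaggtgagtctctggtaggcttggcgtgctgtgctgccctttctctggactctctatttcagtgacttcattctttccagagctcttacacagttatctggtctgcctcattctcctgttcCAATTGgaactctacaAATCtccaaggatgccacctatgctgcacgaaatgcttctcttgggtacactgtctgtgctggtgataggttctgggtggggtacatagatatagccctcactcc
5830411N06Rik: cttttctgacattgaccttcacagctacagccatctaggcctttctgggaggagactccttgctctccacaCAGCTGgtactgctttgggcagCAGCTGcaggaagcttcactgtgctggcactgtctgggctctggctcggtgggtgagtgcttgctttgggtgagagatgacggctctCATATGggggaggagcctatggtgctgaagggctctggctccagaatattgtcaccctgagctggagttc

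Searched on both strands, the Cd163l1 window held 1 AATC, beginning 105 bases before the start, and the 5830411N06Rik window held none. AATC was present in 69.0% of the 32851 windows of this length in the table, so a match is common. The E-box was found once in the Cd163l1 window, 121 bases before the start, and 3 times in the 5830411N06Rik window, at 179, 157 and 70 bases before it. It was present in 66.2% of all windows. The ROR element AGGTCA (14.0% of windows) and the MAF element TGCTGA (16.1%) each had 1 match in the 5830411N06Rik window and none in that of Cd163l1. Neither window held the FOXO motif GTAAACA (3.17%) or the longer AAATCA, which contains AATC (12.4%). The windows were not near copies of each other: their longest shared run was 9 bases, and their GC content was 48.8% for Cd163l1 and 56.0% for 5830411N06Rik. These matches describe letters in a short window and not binding.

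5830411N06Rik went from a signal at the lower quartile of the arrays to one brighter than 99.2% of probe sets. Its probe set, 1438536_PM_at, read 3.03 and 2.98 on the WT arrays. On the arrays labelled hCD2-iCre x Gfi1fl/fl it read 11.78 and 11.72. The labels were far apart and the arrays within each label nearly equal, with means of 3.004 ± 0.03 and 11.75 ± 0.04 (SD, n = 2 each), a difference of 8.75 on the log2 scale or 430-fold in signal. This was the largest difference of all 45037 probe sets on the array.

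Cd163l1 was higher on the same arrays by both of its probe sets. The brighter of them, 1455527_PM_at, read 3.15 and 3.94 on WT replicates 1 and 2. It read 10.995 and 10.987 on hCD2-iCre x Gfi1fl/fl replicates 1 and 2. The means were 3.54 ± 0.56 and 10.99 ± 0.01 (SD, n = 2 each), a difference of 7.45. The other probe set, 1440808_PM_x_at, gave a smaller difference from a higher WT signal. It read 3.47 and 4.09 on the WT arrays and 10.53 and 10.63 on the others, with means of 3.78 ± 0.44 and 10.58 ± 0.07 (SD, n = 2 each). The probe sets of Cd163l1 thus gave 175-fold and 111-fold, a gap of 0.65 on the log2 scale. The suffix of the dimmer one marks a design whose probes can also match other transcripts. Sequences of the probes were not used here, so hybridisation of either gene's probes to the other gene's transcript was not tested.

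For all 3 probe sets the labels did not overlap. Of all genes, 16.0% had both arrays labelled hCD2-iCre x Gfi1fl/fl above both WT arrays, and since this contrast chose the members nothing is read from their count. The narrowest gap between an array of each label was 8.70 for 5830411N06Rik, 7.05 for the brighter Cd163l1 probe set and 6.44 for the dimmer. These folds are ratios of RMA signal and not of transcript amounts, since no detection calls were used and the WT signals lay where RMA compresses differences. In sorted bulk cells, a change in the number of cells that express a gene and a change in RNA per cell cannot be told apart.

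**Figure D1:**
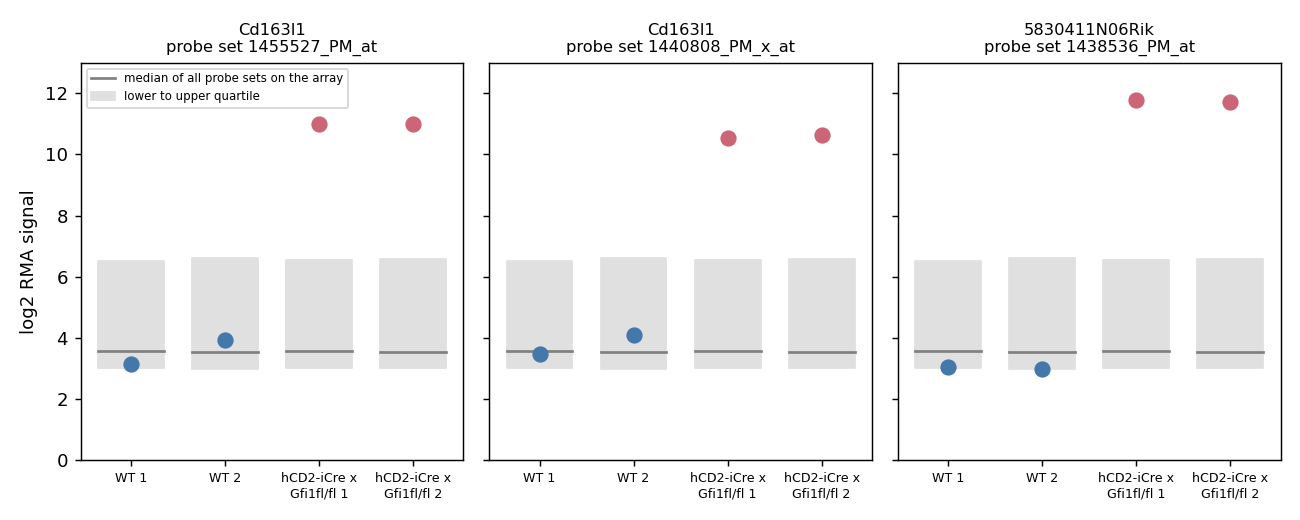
Log2 RMA signal (vertical axis) of the 3 probe sets of the pair on each of the 4 arrays (horizontal axis), 1 point per array; the grey box runs from the lower to the upper quartile of all probe sets on that array and the grey line is their median. The WT points lie between 2.98 and 4.09, and the points labelled hCD2-iCre x Gfi1fl/fl between 10.53 and 11.78.

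The WT arrays differed from each other in Cd163l1 but not visibly in 5830411N06Rik. Both Cd163l1 probe sets were higher on WT replicate 2, by 0.79 and 0.62. Of all probe sets on the array, 3.36% and 6.39% had a wider gap between the WT arrays. The brighter one lay below the array median on WT replicate 1 and above it on WT replicate 2. 5830411N06Rik differed by -0.04 between WT replicates 2 and 1, and 84.5% of probe sets had a wider gap. At these low signals, expression in the WT cells was not detectable as such from the values used here. Under the other label the replicates were close for both genes, at -0.01 and 0.10 for the Cd163l1 probe sets and -0.06 for 5830411N06Rik (replicate 2 minus 1).

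The genes with the most similar profiles were the same for both members. Likeness was the root mean square (RMS) difference over the 4 arrays between profiles each centred on its own mean, so a low value means a similar size and shape, and with 2 arrays per label it mostly ranks genes by the size of their difference. Il18r1, whose product binds interleukin-18 at the cell surface, came first for both, at an RMS of 0.40 to Cd163l1 and 0.60 to 5830411N06Rik. Its difference of 7.60 lay between those of the pair, and it read 3.07 and 2.85 on the WT arrays and 10.80 and 10.32 on the others. The RMS between the members themselves was 0.71, which placed Cd163l1 directly after Il18r1 for 5830411N06Rik and placed 5830411N06Rik after Il18r1, Pdlim4 and Chd7 for Cd163l1. Pdlim4, whose product carries a PDZ and a LIM domain, was at 0.56 and 1.07 from Cd163l1 and 5830411N06Rik. It was the next gene below the pair and Il18r1 in size, with a difference of 6.62.

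Chd7, a chromatin remodeller gene, and Sertad4 completed the list for both members. Chd7 was at 0.71 from Cd163l1 and 1.39 from 5830411N06Rik, and Sertad4 at 0.76 and 1.25. Like Cd163l1, Chd7 was higher on WT replicate 2, with 2.95 and 3.90 on WT replicates 1 and 2. Sertad4 went the other way, with 3.93 and 3.35.

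**Figure D2:**
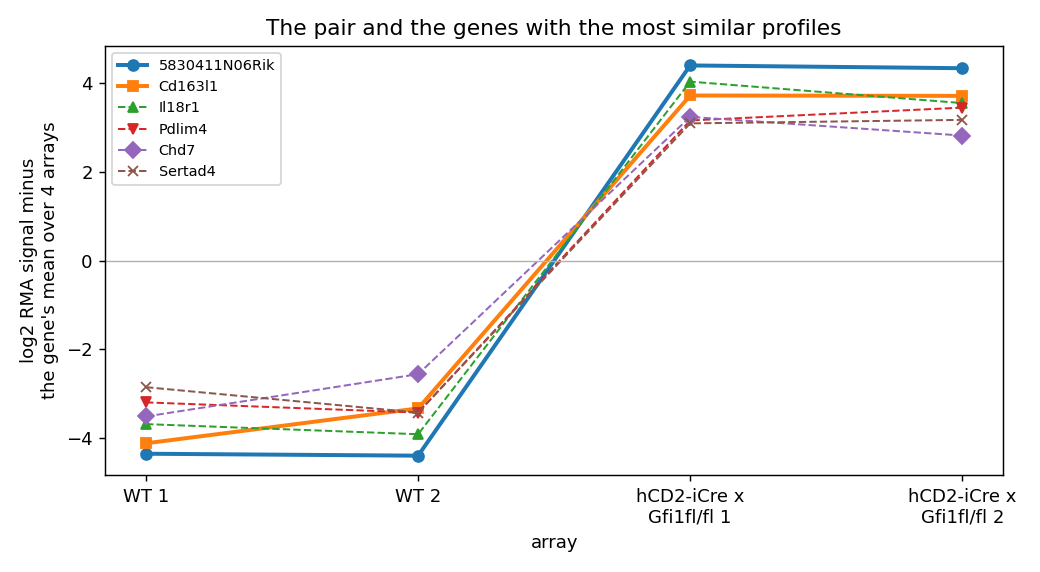
Log2 RMA signal of each gene minus its own mean over the 4 arrays (vertical axis) on each array (horizontal axis) for the pair (thick lines) and the 4 other genes with the lowest RMS difference to them; lines join the 4 arrays only to guide the eye. All 6 genes are low on both WT arrays and high on both others, with 5830411N06Rik the widest at 8.75 between the labels.

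The genes around the pair on chromosome 7 were examined to see how far the difference extended. Of the 25 genes before and the 25 after the pair in the order of gene starts (RefSeq, GRCm38.p6), 10 could be measured, all of them before it. The after side consists mostly of olfactory receptor genes (22 of 25), and neither these nor the 1 olfactory receptor gene between the pair's starts were analysed here. None of the 10 was called by limma, the moderated linear model used throughout (adjusted p under 0.05 over all genes), and 0 had an unadjusted p under 0.05. Over all genes 1.11% were called and 8.29% had an unadjusted p under 0.05, so these counts are near the background. Their differences ran from -0.24 to 0.13, with a median of 0.03, against a median of -0.02 over all genes other than the pair.

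The nearest measured gene was Sprn, which encodes a prion-like protein. It read 3.11 and 3.08 on the WT arrays and 3.25 and 3.10 on the others, a difference of 0.08 ± 0.10 (SE; limma, adjusted p = 0.992). Mtg1, a mitochondrial ribosome-associated GTPase gene, read 6.67 and 6.92 against 6.89 and 6.62, a difference of -0.04 ± 0.25 (SE; adjusted p = 1.00). Echs1, a mitochondrial enzyme gene of fatty acid oxidation, read 8.24 and 8.33 against 8.35 and 7.73, a difference of -0.24 ± 0.26 (SE; adjusted p = 0.967). In each of these genes the labels overlapped. Of the 10, 4 lay below the array median on every array, where a fall would not have been detectable.

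**Figure D3:**
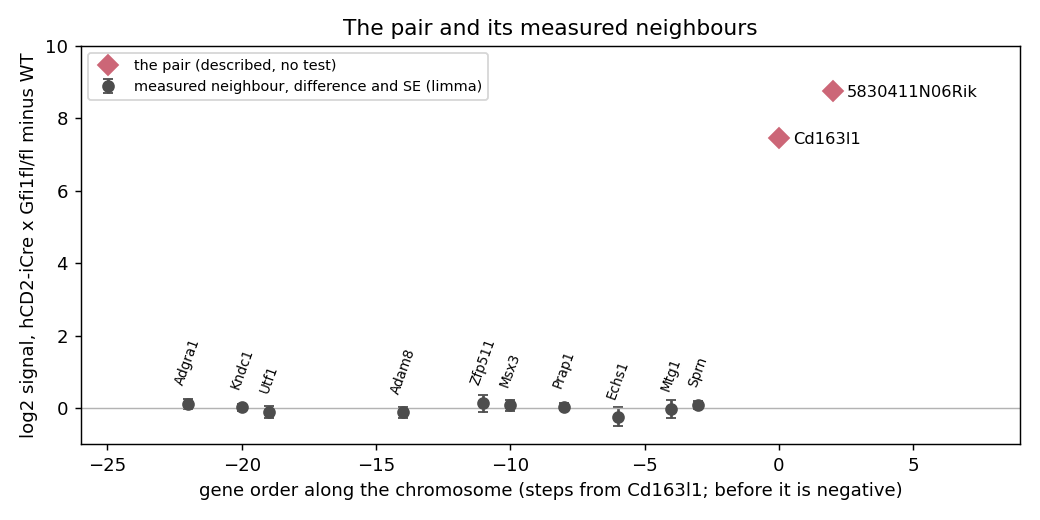
Difference in log2 RMA signal between the arrays labelled hCD2-iCre x Gfi1fl/fl and WT (vertical axis) against gene order, counted in genes from Cd163l1 (horizontal axis); grey points are the 10 measured neighbours with the SE of the limma fit and red diamonds are the brightest probe sets of the pair, shown without a test. The neighbours lie between -0.24 and 0.13, and the pair at 7.45 and 8.75.

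No other SRCR gene passed the test. Of 25 measured members, 0 were called in either direction (limma), 1 had an unadjusted p under 0.05, and the median difference was 0.02. Over all genes 0.942% were called upward and 0.170% downward and 8.29% had an unadjusted p under 0.05, so these counts are near the background and say nothing particular of the family. Among 11 receptors and soluble proteins, Lgals3bp, a secreted galectin-binding glycoprotein, had the largest difference. It read 6.18 and 6.18 on the WT arrays and 7.02 and 6.92 on the others, which do not overlap, a difference of 0.79 ± 0.23 (SE; limma, adjusted p = 0.296). Cd5, a negative regulator of T cell receptor signalling, read 10.44 and 10.32 against 10.20 and 9.72, a difference of -0.42 ± 0.19 (SE; adjusted p = 0.666). Cd6, its neighbour and relative on T cells, differed by -0.21 ± 0.20 (SE; adjusted p = 0.947).

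Cd163, whose name Cd163l1 follows, read near the bottom of the range on all 4 arrays. It read 2.95 and 2.64 on the WT arrays and 3.13 and 2.81 on the others, a difference of 0.17 ± 0.14 (SE; limma, adjusted p = 0.937), with overlapping labels. Of these 11 receptors and soluble proteins, 6 lay below the median on every array, as did 13 of the 14 family members that are enzymes or carry a single such domain. In that second group the differences ran from -0.43 for Tmprss4 to 0.17 for Tmprss15, both membrane-bound serine protease genes (adjusted p = 0.940 and 0.876, limma). Tmprss2, another such protease gene, differed by -0.25 ± 0.15 (SE; adjusted p = 0.811). At such signals a fall could not be seen.

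Scavenger receptors of other structural classes were examined in the same way. Of 17 measured genes, 0 were called and 0 had an unadjusted p under 0.05 (limma), with a median of 0.02 and a range of -0.15 to 0.64. These counts too are near the background of 1.11% called and 8.29% at an unadjusted p under 0.05. The highest was Clec7a, the beta-glucan receptor dectin-1, which read 4.12 and 3.46 against 4.20 and 4.66, a difference of 0.64 ± 0.28 (SE; adjusted p = 0.615). Scarf2, a scavenger receptor of class F, differed by 0.24 ± 0.14 (SE; adjusted p = 0.823). Of the 17, 11 lay below the median on every array.

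Since both members are markers of gamma-delta T cells, the genes of those cells were set beside them. The lists were chosen with earlier results of these data known and are no independent evidence. Of 20 listed gamma-delta receptor gene names, 1 was measured. This was Trgv1, a gamma chain variable segment, which read 3.26 and 3.22 on the WT arrays and 3.83 and 4.35 on the others. The labels did not overlap, and the difference of 0.85 ± 0.20 (SE) was not called (limma, adjusted p = 0.147). Without hCD2-iCre x Gfi1fl/fl replicate 1 or 2 the difference was 1.11 or 0.60, with the spread of that label then not measured.

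Of 24 measured genes of the gamma-delta and interleukin-17 programme, 4 rose, 1 fell and 19 did not pass (limma), with a median of 0.31 against -0.02 over all genes other than the pair. Over all genes 0.942% were called upward and 0.170% downward. An unadjusted p under 0.05 was reached by 10 of the 24, of which 8 were higher and 2 lower, against 8.29% of all genes. Besides Il18r1, Maf, a transcription factor required for interleukin-17-producing gamma-delta cells, rose from 2.83 and 2.92 to 7.42 and 6.23, a difference of 3.96 ± 0.38 (SE; adjusted p = 0.00487). Id2, an inhibitor of E proteins, rose from 7.41 and 6.73 to 8.97 and 8.66, by 1.74 ± 0.28 (SE; adjusted p = 0.0429). Its call was lost with a prior variance that ignores intensity (limma, adjusted p = 0.106). Over the fits with all 4 arrays the lowest limma adjusted p was 0.0133. The call was also lost without WT replicate 2, where the difference was 1.405 and the spread of WT is not measured. Aqp3, a water and glycerol channel gene that is named here after its value was seen, rose by 1.41 ± 0.21 (SE, limma adjusted p = 0.0263). That call ended under 4 of 11 alternatives. Over the fits with all 4 arrays the limma adjusted p was 0.0191 to 0.0575.

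Members of that programme differed among themselves. Cd44, the hyaluronan receptor that is high on interleukin-17-producing gamma-delta cells, fell from 6.81 and 6.68 to 3.57 and 3.60, a difference of -3.16 ± 0.23 (SE; limma, adjusted p = 0.00151). Its 4 probe sets gave differences from -3.16 to 0.13, and their mean, also called, gave -1.42. Sox13, a factor of gamma-delta cells, read 3.21 and 3.20 against 3.17 and 3.14, with a difference of -0.05 ± 0.10 (SE). Il17a itself read 3.59 and 3.33 against 3.45 and 3.58, and the chemokine receptor gene Ccr6 2.82 and 2.75 against 2.68 and 2.68. None of these 3 genes was called (adjusted p = 1.00, 1.00 and 0.863). Sox13 and Ccr6 were slightly lower on the arrays labelled hCD2-iCre x Gfi1fl/fl, without overlap between the labels. So was Ahr, which read 4.63 and 4.16 against 3.43 and 3.49, a difference of -0.94 ± 0.20 (SE; limma, adjusted p = 0.124). Its 2 probe sets gave -0.94 and -0.35. Others that were not called lay higher on the arrays where the pair was high, again without overlap. Blk, a Src-family kinase gene of B and gamma-delta T cells, read 3.67 and 3.62 against 5.38 and 4.39, a difference of 1.24 ± 0.32 (SE; adjusted p = 0.205). Rora, a nuclear receptor gene of the interleukin-17 programme, differed by 0.47 ± 0.18 and Cxcr6, a chemokine receptor gene, by 0.44 ± 0.11 (SE; adjusted p = 0.506 and 0.183). The 5 probe sets of Rora gave differences from -0.08 to 0.47, and the 2 of Cxcr6 gave 0.29 and 0.44. Without hCD2-iCre x Gfi1fl/fl replicate 1 or 2, Blk differed by 0.75 or 1.73 and Cxcr6 by 0.56 or 0.33. The spread of that label is then not measured. Il18rap, the signalling partner of Il18r1, read 3.32 on both WT arrays and 4.11 and 4.19 on the others. The difference was 0.83 ± 0.15 (SE, limma adjusted p = 0.0585, and 0.0357 to 0.152 over the fits with all 4 arrays). It was called in 4 of 11 alternatives. These include the fits without hCD2-iCre x Gfi1fl/fl replicate 1 or 2, which do not measure the spread of that label. The other probe set of Il18rap gave a difference of 0.13. The number of called genes on both gamma-delta lists together was 5. It fell to 3 without WT replicate 2 and was 8 without hCD2-iCre x Gfi1fl/fl replicate 1.

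The summed linear signal of the 24 programme genes was 7477 and 6418 on the WT arrays and 10354 and 9242 on the others. Of these genes, 6 lay below the median on every array. The part of a changed share of gamma-delta cells in the higher signals of the pair was not tested. Their receptor chains, apart from Trgv1, were not analysed here.

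Genes of the double-positive stage differed little beside the pair, most of them downward. Of 17 measured, 0 rose and 1 fell (limma), against 0.942% called upward and 0.170% downward over all genes. The other 16 did not pass. A difference above 0 was found in 2 of the 17, and the median was -0.10. By an unadjusted p under 0.05, 2 of the 17 passed, each lower, against 8.29% of all genes. The gene called was Dntt, the gene of the enzyme that adds untemplated nucleotides at receptor gene junctions. It read 12.23 and 12.39 on the WT arrays and 11.65 and 11.60 on the others, a difference of -0.69 ± 0.11 (SE; limma, adjusted p = 0.0413). Its call was lost without either WT array, without the intensity trend and with the mean of all probe sets in place of the brightest (adjusted p of 0.0815 to 0.266). The summed signal of the list was 52328 and 56934 on the WT arrays and 52128 and 48413 on the others, with the second range just below the first.

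Most measured genes of mature single-positive thymocytes were called higher. Of 18 listed genes, 12 were measured. Of these, 8 were called higher and 0 lower (limma), against 0.942% and 0.170% of all genes, with a median of 1.73. This list too was chosen with earlier results of these data known, so the share called is no independent evidence. The summed signal of the 12 genes was 10130 and 8702 on the WT arrays and 19186 and 16385 on the others. Klf2, which keeps mature T cells quiescent and directs their trafficking, read 4.70 and 4.53 against 9.66 and 9.97, a difference of 5.20 ± 0.24 (SE; adjusted p = 0.000301). Gimap4, a GTPase gene of lymphocytes, rose by 3.92 ± 0.26, Ly6c1, a surface antigen, by 3.86 ± 0.26 and Itgb7, the integrin beta 7 chain, by 2.92 ± 0.23 (SE; adjusted p = 0.00103, 0.00103 and 0.00209). The CD4+CD8+ sort is meant to exclude single-positive cells, and their part in the signals of the pair was not tested.

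Markers of further cell types, which a CD4+CD8+ sort is meant to remove, were mostly dim. Of 13 measured markers of natural killer and innate lymphoid cells, 1 rose, against 0.942% of all genes, with 8 below the median on every array. It was Gzma, the granzyme A gene, which went from 9.90 and 9.67 to 11.33 and 11.55, by 1.65 ± 0.16 (SE; limma, adjusted p = 0.00442). The summed signal of this list was 1506 and 1294 on the WT arrays and 3325 and 3717 on the others. Most of that difference was Gzma: the other 12 genes summed to 549 and 478 against 758 and 724. An unadjusted p under 0.05 was reached by 6 of the 13, all higher, against 8.29% of all genes. Among those not called, Prf1, the perforin gene, differed by 1.01 ± 0.33 (SE, limma adjusted p = 0.388). Nkg7, a granule protein gene, differed by 0.99 ± 0.26 (SE, limma adjusted p = 0.214). Il2rb, the interleukin-2 receptor beta chain gene, differed by 0.54 ± 0.18 (SE, limma adjusted p = 0.413). Klrd1, which encodes CD94, differed by 0.24 ± 0.09 (SE, limma adjusted p = 0.507). The 2 probe sets of Prf1 gave -0.03 and 1.01, and the 3 of Il2rb gave differences from -0.02 to 0.54. With the mean of all probe sets, Prf1 differed by 0.49 and Il2rb by 0.21. Nkg7 was called without either hCD2-iCre x Gfi1fl/fl array (adjusted p = 3.98e-05 and 0.0441), Il2rb without replicate 1 of that label (0.0235) and Prf1 without replicate 2 (0.00421), against up to 0.545, 0.778 and 0.713 over the fits run. Ncr1, the defining receptor gene of natural killer cells, read between 2.80 and 2.87 on all 4 arrays.

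Of 17 measured myeloid and dendritic markers, 1 rose, against 0.942% of all genes, with 9 below the median on every array. It was Ctss, the cathepsin S gene, which went from 5.96 and 5.34 to 10.46 and 10.03, by 4.59 ± 0.28 (SE; adjusted p = 0.000906). The summed signal was 974 and 801 on the WT arrays and 2275 and 1701 on the others. Ctss alone carried that difference: the other 16 genes summed to 912 and 761 against 869 and 657. An unadjusted p under 0.05 was reached by 1 of the 17, against 8.29% of all genes. Csf1r, a defining receptor gene of macrophages, read between 3.31 and 3.62 on all 4 arrays.

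Of 7 measured B cell markers, 0 were called (limma), against 1.11% of all genes, and 1 had an unadjusted p under 0.05, against 8.29%. Their summed signal was 364 and 289 on the WT arrays and 225 and 131 on the others, and 5 lay below the median on every array. Cd79b, a signalling chain of the B cell receptor, read 8.26 and 7.88 against 7.41 and 6.28, a difference of -1.23 ± 0.38 (SE; adjusted p = 0.347). Without hCD2-iCre x Gfi1fl/fl replicate 1 or 2 its difference was -1.79 or -0.66, with the spread of that label then not measured. Ms4a1, the CD20 gene, differed by 0.19 ± 0.12 (SE; adjusted p = 0.853). The part of these cells in the higher signals of the pair was not tested.

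**Figure D4:**
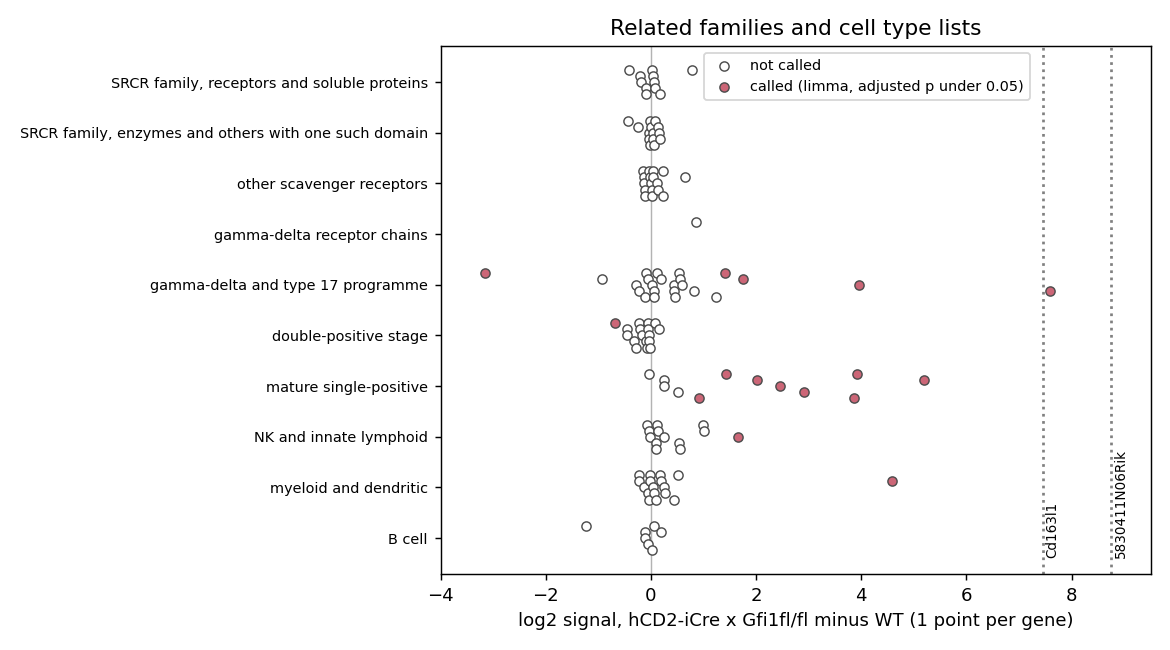
Difference in log2 RMA signal between the arrays labelled hCD2-iCre x Gfi1fl/fl and WT (horizontal axis) for each measured gene of the lists (rows); filled points were called by limma, open points were not, and dotted lines mark the brightest probe sets of the pair. SRCR and other scavenger receptor genes lie between -0.43 and 0.79, and Il18r1 at 7.60 is the only list gene near the pair.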

How the data were processed

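RNA of the sorted cells was read on 1-colour Affymetrix arrays after biotin labelling from the 3' end, per the labels. The deposited values are log2 RMA signals per probe set, and the submitters' processing notes name RMA and Affymetrix Expression Console 1.1. On all 4 arrays they lay between 2.19 and 13.5 and were not centred per gene. They were used without further normalization. No scanner files were used here, so background could not be judged per probe set.

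Probe sets were named from the platform's annotation table: of 45037, it gave 1 name for 28898, several for 551 and none for 15588. A gene was represented by its brightest probe set over all arrays. A limma 3.58.1 model (R 4.3.3; lmFit, then eBayes with an intensity trend) compared the labels without covariate, with moderated variances and Benjamini-Hochberg adjustment over 17097 genes at 0.05, two-sided. The procedure was tested on simulated data. With 2 arrays per label, their number limits the precision. The members and lists were chosen with earlier results of these data known. Named genes followed a rule: the members, Gfi1, per list up to 4 called genes with the largest difference or 2 where none was called, the 3 nearest measured neighbours on each side, and the 5 genes with the most similar profiles. Named outside it, after their values were seen, are Cd6, Cd163, Tmprss15, Sox13, Il17a, Ccr6, Ahr, Il18rap, Aqp3, Blk, Cxcr6, Rora, Cd8a, Rag1, Ncr1, Prf1, Nkg7, Il2rb, Klrd1 and Csf1r. Promoters came from RefSeq's GRCm38.p6 table, with 250 bases before each start, and both members matched by symbol. Plots used matplotlib 3.10.9 (Python 3.11.15).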

Additional observations from a re-analysis of the deposited data

How the results depend on the processing

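The difference of Cd163l1 ran from 7.05 to 7.84 and that of 5830411N06Rik from 8.72 to 8.78 over the fits run. Both moved by less than the spread between replicates with centring on array medians and after quantile normalization was repeated. The same held for Cd163l1 with the mean of its probe sets, while 5830411N06Rik has only 1. A replicate block cannot change a difference in this balanced layout. Leaving out 1 array moves it by less than the SD of that array's label in any data. The block and the omissions could therefore not fail this comparison. Counts of 0 called neighbours, SRCR genes and other scavenger receptors held in all alternatives run. Called double-positive genes went from 1 to 0 without the intensity trend and with the mean of all probe sets. When 1 array at a time was left out, they ranged from 0 to 1, called gamma-delta genes from 3 to 8 and called genes overall from 103 to 475, against 190 with all arrays. These fits have 1 array in a label, which is assumed to vary like the other label. The cause of these changes was not tested. Labels share replicate numbers without saying what they mean; deviations of same-numbered arrays correlated at 0.30 over all probe sets, and with the replicate block 183 genes were called. Among 43 named genes (the pair, Pdlim4, Chd7 and Sertad4 not counted), 441 of 464 values under alternatives kept their side of the threshold, 11 lost a call, 12 gained one and 0 called values changed sign. Aqp3 and Dntt lost their calls in 4 alternatives each, and Il18rap gained one in 4. Most of the gained calls came from fits that left 1 hCD2-iCre x Gfi1fl/fl array, where the spread of that label is not measured. Ahr was also not counted among the named genes here. Background correction and array batch could not be varied without scanner files.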

Other observations

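Probe sets without a single gene name were also set beside the pair. Of 16139 such probe sets, 1 differed by at least as much as the dimmer Cd163l1 probe set, and it read 3.64 and 3.34 on the WT arrays and 10.62 and 10.44 on those labelled hCD2-iCre x Gfi1fl/fl. A rise of at least 5 on the log2 scale was found for 6 of them, and for 7 probe sets of 6 named genes other than the pair.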
